A study of Mus musculus with 4 samples.

Results

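Replication-dependent histone genes supply the core histones H2A, H2B, H3 and H4 and the linker histone H1 that package newly copied DNA. Members were the autosomal protein-coding RefSeq genes whose symbol starts with H2ac, H2bc, H3c or H4c and a number, or is one of H1f1 to H1f6. This rule gave 63 genes of 20665 autosomal protein-coding genes: 6 of H1, 17 of H2A, 16 of H2B, 12 of H3 and 12 of H4. They lie in a cluster of 53 genes on chromosome 13 and a cluster of 10 on chromosome 3 (mm10). Most are short, with a median annotated length of 492 bp and a range of 375 to 37455 bp; 5 are annotated as longer than 1 kb.

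Many of these genes stand in divergent pairs. They are transcribed mainly while DNA is replicated, lack introns as a rule, and end in a stem-loop in place of a poly(A) tail; NPAT drives their transcription and SLBP binds the stem-loop. An adult liver holds mostly resting hepatocytes, in which the demand for new histones is low. H2ac1, H2bc1 and H1f6 are exceptions, since they encode the testis forms of H2A, H2B and H1 that enter chromatin during spermatogenesis.

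The assay was reduced representation bisulfite sequencing, in which DNA is cut with MspI (at CCGG) and TaqI (at TCGA) and cytosines near the cuts are read after bisulfite conversion. Liver DNA came from 6-week-old C57BL6/N mice, in 2 libraries of Pnpla7+/+ (WT) and 2 of Pnpla7-/- (KO). Pnpla7 encodes a lysophospholipase of the liver, and the comparison is between livers with and without it. The labels give neither how the allele was made nor the animals' sex, nor whether the replicates are different animals; p-values therefore measure only the spread among libraries. Total depth over cytosines was 50413170 and 59437109 reads for the WT pair, against 59953688 and 60535892 for the KO pair. Across analysed autosomal CpGs the median depth was 21 reads in WT replicate 1 and 25 in each of the other libraries; CpGs of the histone windows had a median of 30 reads per library. Gene regions of hepatocyte markers had a median level of 24.6% (9 genes, from 5.18% to 53.3%), against 31.8% over all gene regions. The median was 76.8% for leukocyte markers (9 genes), 65.6% for stellate and endothelial markers (8 genes) and 35.5% for bile duct markers (5 genes).

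A CpG was analysed when every library had at least 10 reads there, both strands summed. A gene's level is the share of methylated reads over all analysed CpGs in the gene and 1 kb on either side, its window. Of 942 CpGs listed in the windows of the 63 genes, 535 were analysed, out of 1566008 autosomal CpGs analysed in all. Windows of neighbouring genes overlap, and 170 of these CpGs lie in more than 1 window, so neighbours share values. A level was tested in 44 genes with at least 3 analysed CpGs; H2ac8 had 1 and H1f6 had 2. No CpG was analysed for 17 genes, namely H3c10, H2bc14, H4c12, H2ac15, H2bc15, H2ac22, H2bc22, H2bc23, H2ac23, H4c17, H3c6, H2bc8, H4c4, H2ac4, H3c2, H4c2 and H3c14. For 6 of them (H2bc23, H2ac23, H4c17, H2bc8, H3c2 and H4c2) no CpG was listed in any library.

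The sequences before the gene start show what these measurements rest on. The 250 bases before the annotated start are given for 5 ordinary members, chosen with their values known to cover H1, H2A, H2B and H4, and for the testis gene H2bc1, whose start lies 281 bp from that of its divergent partner H2ac1. They are from RefSeq on GRCm38.p6 (mm10), 5′ to 3′ on the strand of the gene, with CpGs in capitals. H1f2 is at chr13:23738557-23738806 (+), H2ac21 at chr3:96219635-96219884 (+), H2bc18 at chr3:96269450-96269699 (+), H4c11 at chr13:21734784-21735033 (+), H4c1 at chr13:23761250-23761499 (-) and H2bc1 at chr13:23934157-23934406 (-).
H1f2: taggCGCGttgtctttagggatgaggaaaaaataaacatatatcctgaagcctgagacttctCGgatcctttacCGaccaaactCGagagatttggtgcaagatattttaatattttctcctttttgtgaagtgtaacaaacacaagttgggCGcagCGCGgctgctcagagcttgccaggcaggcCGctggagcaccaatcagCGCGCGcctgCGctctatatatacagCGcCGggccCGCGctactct
H2ac21: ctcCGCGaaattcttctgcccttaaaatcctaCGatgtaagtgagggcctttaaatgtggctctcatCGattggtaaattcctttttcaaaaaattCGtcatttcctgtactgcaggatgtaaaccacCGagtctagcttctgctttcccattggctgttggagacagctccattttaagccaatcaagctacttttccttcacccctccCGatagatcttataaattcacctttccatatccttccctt
H2bc18: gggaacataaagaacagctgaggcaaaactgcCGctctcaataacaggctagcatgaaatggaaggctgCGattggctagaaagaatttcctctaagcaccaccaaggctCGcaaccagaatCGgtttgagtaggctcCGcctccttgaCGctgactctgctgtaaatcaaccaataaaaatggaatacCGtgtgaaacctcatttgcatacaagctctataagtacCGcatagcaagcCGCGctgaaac
H4c11: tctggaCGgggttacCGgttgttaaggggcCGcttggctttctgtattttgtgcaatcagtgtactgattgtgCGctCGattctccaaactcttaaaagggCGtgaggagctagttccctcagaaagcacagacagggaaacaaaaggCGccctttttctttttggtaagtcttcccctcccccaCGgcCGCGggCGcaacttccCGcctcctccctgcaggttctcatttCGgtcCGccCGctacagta
H4c1: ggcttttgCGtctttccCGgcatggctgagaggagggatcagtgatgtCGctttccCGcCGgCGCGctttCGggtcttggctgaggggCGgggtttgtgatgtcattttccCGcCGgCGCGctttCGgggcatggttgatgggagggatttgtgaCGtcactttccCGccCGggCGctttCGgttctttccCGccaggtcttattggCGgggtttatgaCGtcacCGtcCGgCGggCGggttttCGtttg
H2bc1: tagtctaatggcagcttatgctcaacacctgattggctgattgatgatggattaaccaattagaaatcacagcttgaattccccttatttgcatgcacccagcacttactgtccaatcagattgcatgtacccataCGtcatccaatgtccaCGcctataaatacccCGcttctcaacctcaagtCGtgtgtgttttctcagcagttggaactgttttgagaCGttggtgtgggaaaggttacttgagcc
The 17 CpGs of the H1f2 sequence included 14 analysed ones, with a mean level of 0.211% over the 4 libraries. H4c1 had 23 of 27 analysed, at 0.647%, and none of its CpGs reached a mean above 2.11%. All 4 analysed CpGs of H2ac21, out of 7, were at 0% in every library. H4c11 had 4 of 15 analysed, at 3.47%, with 1 library (WT replicate 1) at 6.17% and KO replicate 2 at 1.25%. The sequences of H2bc18 (10 CpGs) and H2bc1 (5 CpGs) had no analysed CpG, so the methylation reported for these genes comes from the gene itself and from beyond this stretch.

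Letters known from histone promoters were common in these sequences. Searches covered both strands of 300 bases (250 before the start to 50 after), with 59 entries for 58 members and 20085 entries for all autosomal protein-coding genes. The TATA letters TATAAA were in 34 of the 59 histone entries (57.6%) and in 12.7% of all entries. CCAAT was in 51 (86.4%, against 38.1%): in every entry of H1, H2A, H2B and H3, and in 3 of 11 entries of H4. The octamer ATTTGCAT, known as a binding site of OCT1 (Pou2f1) in H2B promoters, was in 13 entries (22%, against 1.67% of all), 6 of H2A and 7 of H2B. Of the 59 entries 18 overlap another, so a site can count for both genes; the 13 octamer entries hold 10 distinct sites. The octamer stands in both H2bc18 and H2bc1 above. AAACACA, the H1 box, was in 9 entries (15.3%, against 6.25% of all): 5 of 6 of H1, 2 of H2A and 2 of H2B, with H2bc1 and H2ac1 among them. GGTCCG, part of the H4 element bound by HINFP, was in 10 of 11 H4 entries, in 1 each of H2B and H3, and in 10.7% of all entries. Matches describe letters only.

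The same stretches were thinly covered by the assay. Of 758 CpGs in the 59 histone entries, 24.1% were listed and 12.1% were analysed, against 64.9% and 40.5% in all entries. In 3728 entries with a CpG number like that of the histones, 47.8% were listed and 27.3% were analysed. CCGG stood in 21 entries (35.6%, against 63.5% of all) and TCGA in 8 (13.6%, against 24.1%). In 40 of the 59 entries no CpG was analysed. Of these 40, 7 hold CCGG or TCGA, whereas all 19 entries with an analysed CpG hold one or both. The median CpG number per entry was 11 for histones and 14 for all, and the median GC content was 45.3% and 57%. Some copies are nearly identical: H4c17 and H4c18 share a run of 285 bases, H2bc23 and H2ac24 233, H3c14 and H3c15 231, and H2ac18 and H2ac19 219. How the authors placed reads that match several copies is not given in the sources used here, so the values of these genes are uncertain, and the part of such copies in the missing CpGs was not tested.

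Where it was measured, most of the histone sequence was nearly unmethylated in both genotypes. Of the 44 tested genes, 33 (75%) had a mean level under 10%, 32 under 5% and 27 under 2%; their median was 0.938%. Over all 17112 gene regions, 17.9% were under 10% and the median was 31.8%. Of 125 other protein-coding genes annotated at 1 kb or less, 24.8% were under 10%, 40% were over 80%, and the median was 73.6%. They had a median of 7 analysed CpGs, against 11.5 for the histone genes. Beside the start, low levels were common to most genes. Of promoter entries with at least 3 analysed CpGs, 12 of 12 histone entries and 93.9% of 9235 in all were under 10%. Among 1670 entries with a CpG number like that of the histones, 85% were under 10%. At single CpGs, 451 of 535 (84.3%) were under 10%, against 42.8% of all analysed autosomal CpGs, and 46 were over 80% (8.6%, against 36.3%). In 15 genes at least 1 library had no methylated read at all, over 54 to 496 reads summed over CpGs. If all these counts were independent, a count of 0 would allow levels up to 0.605% to 5.56% (3 reads of the total, counting error only). A read that spans several CpGs is counted at each, so these limits are too low where CpGs share reads. The reads are also PCR-amplified, without molecular identifiers.

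**Figure D1:**
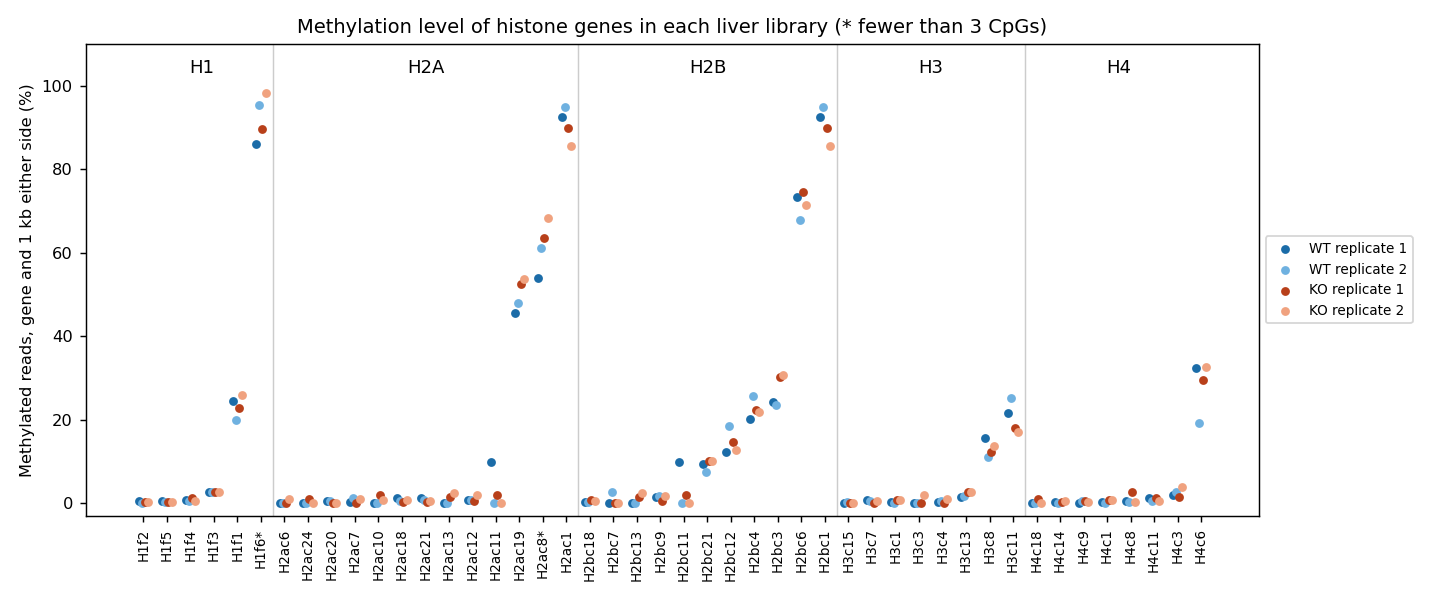
Methylation level (percent of methylated reads in the gene and 1 kb either side) of the 46 histone genes with an analysed CpG, by family and in order of mean level; each point is 1 library, blue for WT and orange for KO. Most genes lie near 0% in all 4 libraries, while H2ac1 and H2bc1 lie between 85.6% and 94.8%.

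The members with the most CpGs in each family were all near 0. H1f2, a linker histone with 42 analysed CpGs, had levels of 0.538%, 0.0583%, 0.206% and 0.278% (WT replicate 1, WT replicate 2, KO replicate 1, KO replicate 2; the order used from here on). H2ac20 (25 CpGs) had 0.58%, 0.433%, 0.117% and 0.18%. H2bc18 (26 CpGs) had 0.205%, 0.331%, 0.71% and 0.471%. The genotypes overlapped for H1f2, while both KO libraries lay below WT for H2ac20 and above WT for H2bc18, by differences of -0.36 and 0.32 percentage points. The difference of H2ac20 turned to 0.246 with flanks of 2 kb. H3c1 and H4c1 lie side by side and share the same 42 CpGs, with 0.402%, 0.171%, 0.736% and 0.702%. Both KO libraries were again the higher, by 0.433 points (unadjusted p = 0.119, moderated quasi-binomial model, adjusted p = 0.999).

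Levels varied with distance from the gene start in the ordinary members, those other than H2ac1, H2bc1 and H1f6. In the 250 bp before the start the mean level was 0.54% (66 CpGs at 17 starts), and in the 250 bp after it 0.451% (141 CpGs at 17 starts). The same bins around all autosomal protein-coding starts were at 2.34% and 2.24%. From 750 to 1000 bp past the start the means were 5.64% and 9.49%. From 750 to 500 bp before the start the histone mean was 20.8% (43 CpGs at 12 starts), above the 8.54% of all genes. The median CpG in that bin was at 1.16%, so a few CpGs held the methylation; the 8 upstream of H2ac19 described later are among them.

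**Figure D2:**
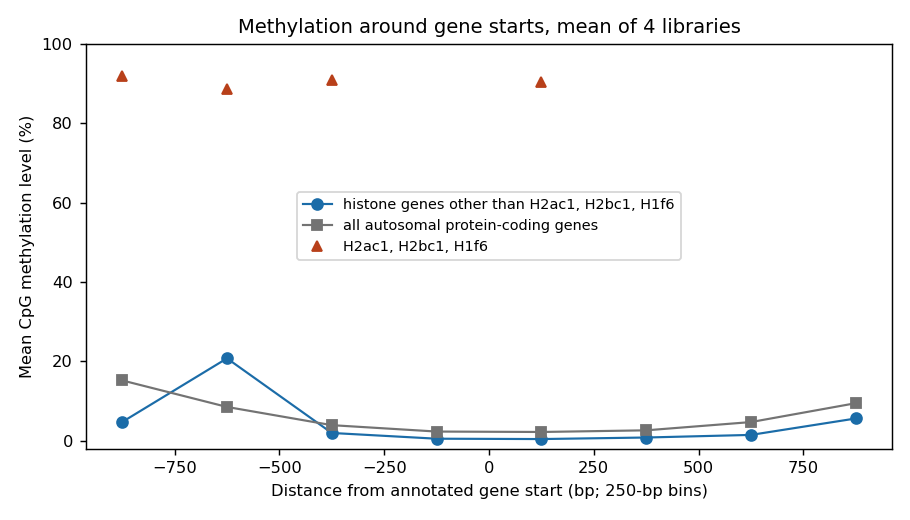
Mean CpG methylation level (percent, mean of the 4 libraries) in 250-bp bins of distance from the annotated gene start, for ordinary histone genes (circles), all autosomal protein-coding genes (squares) and H2ac1, H2bc1 and H1f6 (triangles; bins without a CpG are empty). Ordinary histone genes are at 0.54% and 0.451% in the bins beside the start, and the testis genes between 88.6% and 91.9% in every bin measured.

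Short gene bodies were nearly free of methylation. Inside ordinary members of 1 kb or less, 220 of 221 CpGs were under 10%; their mean was 0.518% ± 0.224 (SD, n = 2) in WT and 0.567% ± 0.0308 in KO. In the flank before the start 125 of 140 CpGs were under 10%. In the flank past the end 50 of 70 were under 10%, 15 lay between 20% and 80%, and 4 were over 80%. In flanks of genes with no strand in the promoter table all 33 CpGs were under 10%. Of 52 CpGs inside the span of a longer annotated member and in no short gene body, 23 were under 10%, 12 were intermediate and 17 were over 80%. These were not counted as flank, although some also lie in the flank of a short member. The 18 CpGs before the start of H2ac20, all under 10%, are among them, since they lie in the span of H2bc21. Of all 34 intermediate CpGs, 32 lay outside the short gene bodies and the testis genes. In bulk tissue an intermediate level does not separate a part of the cells that is fully methylated from partial methylation in all of them.

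**Figure D3:**
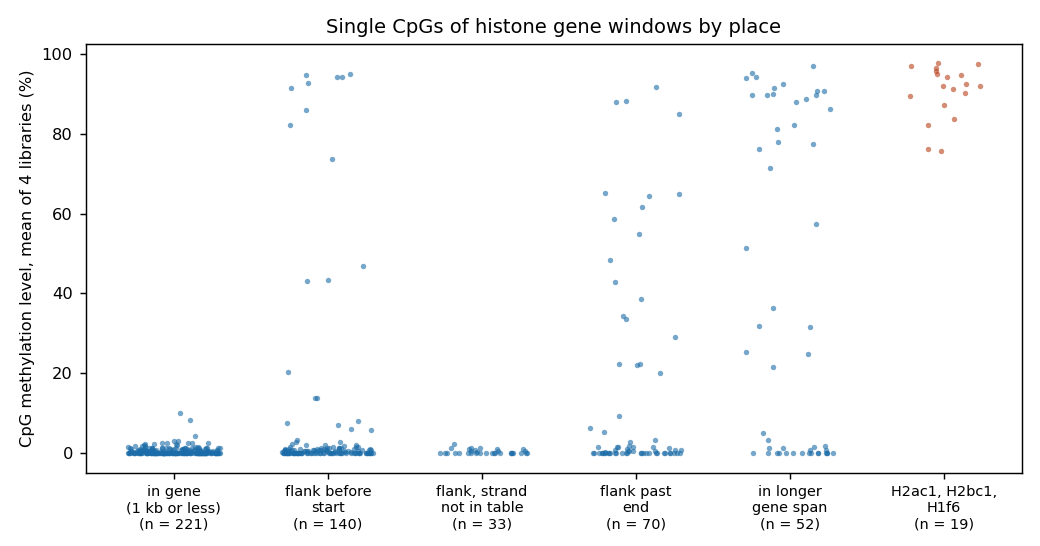
Methylation level (percent, mean of the 4 libraries) of each of the 535 analysed CpGs of histone windows by place; points are CpGs, spread sideways at random. The 221 CpGs inside short genes stay near 0%, the highest at 10.1%, while flanks past the end and longer gene spans hold intermediate and methylated CpGs.

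H1f1 shows the contrast within a single window. It encodes a linker histone, and its level over 19 CpGs was 24.5%, 20%, 22.9% and 26% in the 4 libraries. Its 13 CpGs inside the gene had a mean of 2.09%, whereas the 6 CpGs 381 to 497 bp past its end had a mean of 70.7%, with 4 of them over 80%. The methylated CpGs lay at chr13:23764863-23764909. The genotypes overlapped over the window, and the difference was 2.21 points (WT 22.2% ± 3.13 and KO 24.4% ± 2.21, SD, n = 2 each). It turned to -0.00566 without WT replicate 2, to -0.35 without flanks and to -0.38 with CpGs weighted alike.

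H2bc6, an H2B gene, had levels of 73.4%, 67.9%, 74.4% and 71.4% over 25 CpGs, the highest outside the testis genes among those tested. RefSeq draws it over 37455 bp, and its methylated CpGs lay in a stretch of 15 at chr13:23591386-23592829 (76.1% to 96.9%) and one of 4 at chr13:23602440-23602742 (78% to 95.3%). The promoter table gives it 2 starts, at positions 23585970 and 23621094, and the methylated stretches lie between them. Before the first start, on its minus strand, 3 CpGs at chr13:23586284-23586327 were at 0% to 1.82%. Beyond the annotated span at the second, 2 CpGs at distances of 344 and 401 bp had a mean of 0.284%. H2bc4, also drawn long at 8282 bp, had 20.1%, 25.7%, 22.4% and 21.9%, from 4 methylated or intermediate CpGs (mean 43.8%) and 7 in the flank at 0.137%. For both genes the level describes the long annotation, and the genotypes overlapped.

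A further 4 members passed 20% through CpGs outside the gene. H2bc3, an H2B gene, had 5 analysed CpGs, all past its end, and levels of 24.4%, 23.5%, 30.3% and 30.7%. Both KO libraries lay above both WT libraries, by 6.58 points over 78 to 140 reads per library (p = 0.346 before adjustment, moderated quasi-binomial model). H3c11, an H3 gene, had 21.6%, 25.2%, 17.9% and 17%; the 3 CpGs past its end had a mean of 57.4% and the 5 before its start 0.543%. Its KO libraries were both lower, by 6.00 points (unadjusted p = 0.175, same model). H4c6, an H4 gene, had 32.3%, 19.2%, 29.5% and 32.7% over 6 CpGs, where WT replicate 2 stood below the rest; its difference of 5.36 points became -1.18 without that library. H2ac8 rested on a single CpG, 848 bp past its end, with 53.8%, 61.1%, 63.6% and 68.4% at 11 to 19 reads. Both KO libraries were the higher there, and a single CpG was not tested as a region. Between 10% and 20% lay H3c8 (13.1%) and H2bc12 (14.5%), which were chosen for mention after their values were seen; in each the intermediate CpGs lay past the end of the gene.

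H2ac19 and H2ac18, H2A genes on chromosome 3 with a long identical run before the start, had different levels over their windows. Their analysed CpGs lay at unlike distances from the start. H2ac18, named with its values known, had a mean level of 0.72%, with all 11 of its CpGs, 198 to 550 bp before the start, under 10%. H2ac19 had 45.6%, 48%, 52.4% and 53.7% over 21 CpGs. Its 8 CpGs over 80% lay at chr3:96240904-96241124, before the start, and the 8 CpGs past its end had a mean of 0.0801%. Both KO libraries were above WT over the summed reads, by 6.27 points (unadjusted p = 0.0349, adjusted p = 0.999, moderated quasi-binomial model). The level of the 8 methylated CpGs did not follow the genotype, at 91.2%, 92.7%, 89.9% and 93.4%. What differed was how many of the window's reads fell on them, at 49.9% and 51.3% in WT and 58% and 57.4% in KO. With each CpG given the same weight the difference was -0.65 points.

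The testis genes were methylated at the CpGs analysed. H2bc1 and H2ac1 encode the testis forms of H2B and H2A, and are transcribed away from each other on chromosome 13 (H2bc1 at chr13:23933725-23934156, H2ac1 at chr13:23934437-23934913). Their windows share the same 17 analysed CpGs, 9 in H2bc1 and 8 in H2ac1, at 503 to 589 reads per library. The level was 92.6%, 94.8%, 89.9% and 85.6%, so that both KO libraries lay below both WT libraries. H1f6, the testis form of H1, had 2 analysed CpGs 696 and 891 bp before its start, with levels of 86.1%, 95.5%, 89.7% and 98.2%, and the genotypes overlapped. Over all 19 testis gene CpGs, 17 were over 80%, and no other short histone gene body held a CpG above 20%. Both H2bc1 and H2ac1 hold the TATA letters, CCAAT and the octamer, which also occur among the ordinary members.

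H2bc1 and H2ac1 had the smallest unadjusted p of all histone gene regions. WT was at 93.7% ± 1.57 and KO at 87.7% ± 3.03 (SD, n = 2 each), a difference of -5.97 points (unadjusted p = 0.0179, adjusted p = 0.999 over all gene regions, moderated quasi-binomial model). The level was lower in KO at 15 of the 17 CpGs, and at 8 of them both KO libraries lay below both WT libraries (over all CpGs tested, genotypes did not overlap in either direction at 27.1%). Neighbouring CpGs share reads and are not replicates. In H2bc1 the mean of the 9 CpGs was 94.6%, 95.1%, 90.6% and 91%. In H2ac1 the mean of the 8 CpGs was 89.5%, 93.4%, 88.8% and 78.4%, where KO replicate 2 stood apart. Without KO replicate 2 the difference was -3.83 points, and without KO replicate 1 it was -8.12. Fisher's exact test on pooled reads, which has no term for the spread between libraries, gave adjusted p = 7.87e-05, and the difference was under the 10 points a call needed.

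**Figure D4:**
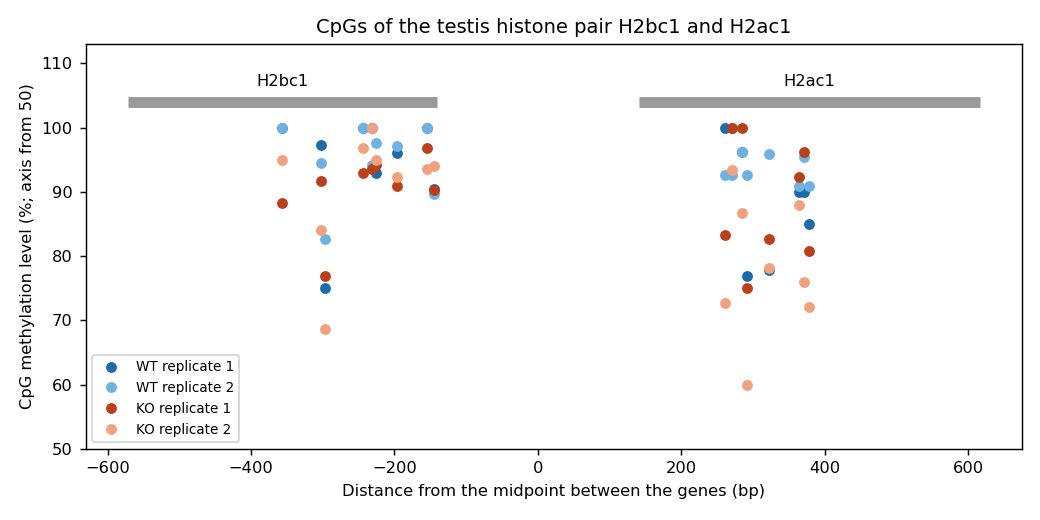
Methylation level (percent, axis from 50) of the 17 analysed CpGs of H2bc1 and H2ac1 against distance in bp from the midpoint between the genes; each point is 1 library and the grey bars mark the annotated genes. Both KO points lie below both WT points at 8 of the 17 CpGs, and the lowest point is one of KO replicate 2 in H2ac1.

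The genotype comparison called no histone gene. A call needed an adjusted p under 0.05 over all 17108 regions tested and a difference of at least 10 points. By that rule 0 of the 44 histone regions and 0 regions in all were called (0% of all tested, moderated quasi-binomial model). A region with a mean level under 5% cannot differ by 10 points, so 32 of the 44 could not be called by this rule. With no minimum difference, 0 histone regions and 0 regions in all were called. Fisher's exact test on pooled reads called 53 regions, 0 of them histone genes. At an unadjusted p under 0.05 there were 3 histone regions of 44 (6.82%), against 4.45% of all: H2ac1 and H2bc1 with their shared CpGs, and H2ac19. KO and WT libraries did not overlap in 18 of the 44 (40.9%), against 32.6% of all regions. The difference was higher in KO in 25 and lower in 19, with a median of 0.189 points, against -0.075 over all regions.

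**Figure D5:**
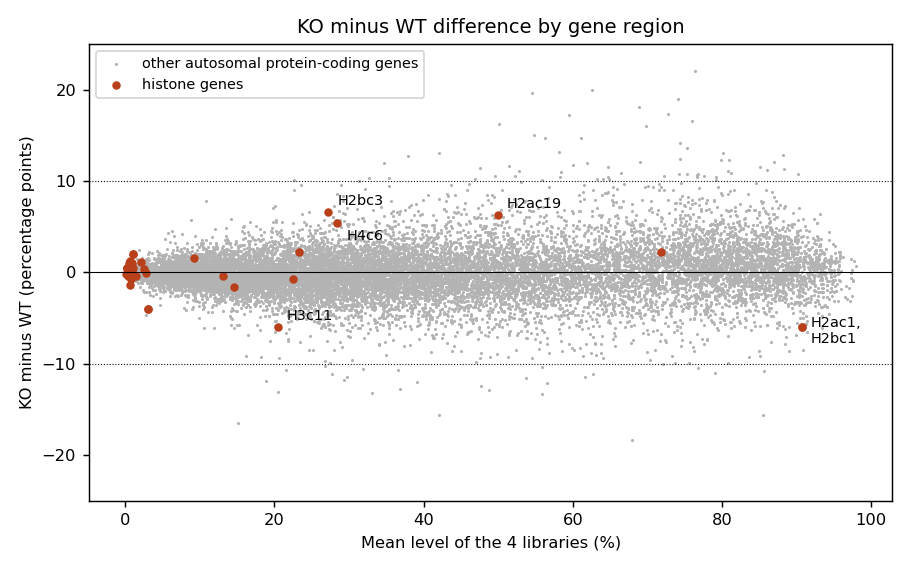
KO minus WT difference (percentage points) against the mean level of the 4 libraries (percent) for each tested gene region; orange points are the 44 histone regions, grey points all others, and dotted lines mark 10 points either way. The histone genes lie within 7 points of 0, and the labelled ones differ by more than 5 points.

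Among the 33 regions under 10% the differences were small in points. The median absolute difference was 0.433 points and the largest 4.04 points, with 20 regions higher and 13 lower in KO. The largest belonged to H2bc11 and H2ac11, chosen for mention after their values were seen, which share 4 CpGs and had 10%, 0%, 1.92% and 0% at 40 to 64 reads per library. The WT libraries themselves thus differed by more than the genotypes.

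By family, none of the differences was called. Of the H1 regions 2 were higher in KO and 3 lower, of H2A 6 and 6, of H2B 5 and 6, and of H3 4 and 4. All 8 tested H4 regions were higher in KO, with a median of 0.418 points; over all regions 8126 of 17108 were higher. Genotypes did not overlap in 2 of the 8, against 32.6% of all regions. The mean over the H4 regions was 4.6% and 2.93% in WT and 4.7% and 4.88% in KO, so that WT replicate 1 lay close to KO. Much of this mean came from H4c6 (32.3%, 19.2%, 29.5% and 32.7%), while the median level of the H4 regions was 0.712%. With a library left out the number of H4 regions higher in KO fell to between 5 (without KO replicate 1) and 7. H4c14, with 41 CpGs, had 0.354%, 0.0741%, 0.361% and 0.532%, and H4c1 is given above; these are the H4 regions whose genotypes did not overlap, named after their values were seen.

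Single CpGs gave no call in the histone windows either. Of 535 CpGs, 276 held both methylated and unmethylated reads and were tested, and 0 were called by the same rule, against 0.00984% of 1229673 CpGs tested in all (121 called, 116 higher and 5 lower in KO). The share called higher was 0.00943% and lower 0.000407%. Fisher's exact test on pooled reads called 508 CpGs, 0 of them in histone windows. At an unadjusted p under 0.05 there were 7 histone CpGs (2.54%), against 4% of all, and libraries did not overlap at 57 (20.7%), against 27.1%. The smallest p was at chr13 position 23934558 in H2ac1, with 100%, 92.6%, 83.3% and 72.7% (a difference of -18.3 points; the moderated quasi-binomial model gave unadjusted p = 0.00599 and adjusted p = 0.779). Next came position 23934053 in H2bc1 (-5.13 points), position 23552335 before H4c6 (20.1 points) and position 96219188 on chromosome 3 before H2ac21 (-2.70 points). The fifth, position 23761328 before H4c1, was at 0% in both WT libraries and at 3.57% and 4.88% in KO. All had the same adjusted p of 0.779. The absence of a call at single CpGs does not show that the genotypes were alike there.

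The mean over all 535 histone CpGs did not separate the genotypes. It was 11.6% and 11.3% for the WT pair, against 11.5% and 11.4% for the KO pair. The means were 11.5% ± 0.218 for WT and 11.5% ± 0.0735 for KO (SD, n = 2 each), which differ by -0.0278 points, less than the spread between replicates. All analysed autosomal CpGs had 44.5% ± 0.151 in WT and 44.9% ± 0.0246 in KO, or 0.346 points more. By level, the 451 histone CpGs under 10% had 0.554% ± 0.171 in WT and 0.675% ± 0.0483 in KO. The 46 over 80%, which include 17 of the testis genes, had 91.8% ± 1.21 and 89.9% ± 0.363, with no overlap between genotypes. The 19 testis gene CpGs by themselves had 93% ± 2.01 in WT and 88% ± 2.25 in KO. The 516 other histone CpGs had 8.49% ± 0.3 and 8.65% ± 0.00663, with overlap. No mean was computed for the 29 of these over 80%.

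Genes that act with the replication-dependent histones were read from the same fit, and none was called. Of the genes that make and process histone mRNA, 20 of 21 were tested, 10 higher and 10 lower in KO, with a median of 0.0751 points. Npat, the coactivator of histone transcription, had 10.6%, 9.86%, 10.5% and 8.84%, and Slbp, the stem-loop binding protein, had 9.34%, 8.07%, 8.88% and 11.8%. Both overlapped between genotypes. Of histone chaperones 15 of 18 were tested, 11 higher and 4 lower, with a median of 0.335 points. An unadjusted p under 0.05 was found in 3 of the 15, against 4.45% of all regions. These, named after their values were seen, were Ipo4, an importin that carries histones into the nucleus (68.7% ± 1.10 in WT and 62.6% ± 2.09 in KO, SD, n = 2), Nap1l4 (13.8% ± 2.19 and 9.45% ± 0.671) and Ssrp1, a subunit of FACT (25.9% ± 0.332 and 31.6% ± 2.52). Each had an adjusted p of 0.999 (moderated quasi-binomial model). Of DNA replication genes 21 of 22 were tested, 7 higher and 14 lower, with a median of -0.65 points.

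A list of 20 other histone symbols held replacement variants, germ cell forms, and H2aw and H2bu2 from a small cluster on chromosome 11. The autosomal annotation held 17 of them, all outside the rule, and 16 were measured. Of these 11 were higher and 5 lower in KO, with a median of 0.147 points and a median level of 6.12%. Their levels were under 10% in 10, between 10% and 20% in 1, between 20% and 80% in 3 and over 80% in 2. The germ cell linker histones H1f7 and H1f8 were methylated, at 79.8% ± 3.80 and 93.2% ± 0.212 in WT and 86.6% ± 2.57 and 91.8% ± 1.45 in KO (SD, n = 2). H1f0, the linker histone of resting cells, was at 0.944% ± 0.209 and 0.894% ± 0.293, and H3f3b, an H3.3 gene, at 0.574% ± 0.115 and 0.631% ± 0.0997. H3f4, a testis H3 gene, was intermediate, at 40.7% ± 10.9 and 46.3% ± 0.737, as was Macroh2a1, a macroH2A gene, at 48.8% ± 3.07 and 47.7% ± 1.55. These examples were chosen after their values were seen.

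Other genes that stand inside the histone clusters covered a wide range of levels. Of 51 such genes 14 were measured, and 3 (Btn1a1, Hfe and Zfp184, named after their values were seen) were under 10%, against 33 of the 44 histone regions. The 14 had a median level of 35.4% and a range of 1.04% to 86.4%, against the median of 0.938% for the 44 histone regions. Most of the 14 are annotated over several kb or more, against a median length of 492 bp for the histone genes. The windows therefore hold unlike sequence, and no comparison at matched length was made. The difference was higher in KO in 5 and lower in 9, none called, with a median of -0.40 points. Hepatocyte marker regions were higher in KO in 7 of 9, against 8126 of 17108 regions in all. Their median was 2.09 points, and they ranged from -12.8 points (Cyp2e1) to 16.2 points (Tat). Leukocyte markers were higher in KO in 5 of 9, stellate and endothelial markers in 3 of 8 and bile duct markers in 2 of 5. No marker region was called, and the part of liver cell composition in the histone values was not tested.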

How the data were processed

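Each library had 2 deposited tracks, on mm10 and from the program GBSA per the file headers. Their values were treated as a signed score: the deposited level is a fraction, negative for cytosines of the reverse strand, and the deposited depth is signed alike. BWA 0.7.12 and MACS are named in the submitters' processing notes, without a role. The rest of the authors' steps is not given in the sources used here. Level times depth was whole at 100% of positions (tolerance 1e-06), which gave read counts.

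Strands were summed, and CpGs with 10 or more reads in every library were kept. Reads were summed over each gene and 1 kb either side (3 or more CpGs). Gene coordinates, strands and promoter sequences came from RefSeq tables (GRCm38.p6); no strand was found for H4c14, H2bc21, H2bc4, H3c7 and H3c1. The test of each region and CpG was a moderated quasi-binomial model: the Pearson dispersion was shrunk with limma 3.58.1 and held at 1 or above, with a two-sided F test and Benjamini-Hochberg adjustment over all regions or all CpGs. The dispersion prior used features with a binomial variance of 5 reads or more per library. A call needed adjusted p under 0.05 and 10 points. The model was also tested on simulated data of intermediate level. It recovered almost no changes at single CpGs there, and only a part of the changes of 10 points in gene regions. Software was R 4.3.3, Python 3.11.15 with pandas 2.3.3, and matplotlib 3.10.9.

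Members, lists, the dispersion prior and tests were chosen with earlier results of these data known. The text names, by rule, the testis members, members of 20% or more, the 5 largest differences, the member with the most CpGs per family, members without analysed CpGs and the 5 CpGs with the smallest p; all other genes named were chosen with their values known, Npat and Slbp for their role. Alternatives covered coverage, prior, test, window, replicate block and each library left out.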

Additional observations from a re-analysis of the deposited data

How the results depend on the processing

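No histone gene region and no histone CpG was called under any of the alternatives run. Of 203 recomputed differences of 14 named genes, 192 kept their direction. The 11 that turned were H2bc4 with 5 reads as the minimum (0.436 points); H1f2 without WT replicate 1 (range over libraries left out -0.30 to 0.184); H4c6 (-1.18 to 11.9), H2bc6 (-0.51 to 4.98), H2bc4 (-3.50 to 2.10) and H1f1 (-0.00566 to 4.42), each in the absence of WT replicate 2; H1f1 without flanks (-0.35); H2ac20 with 2 kb flanks (0.246); and H2ac19 (-0.65), H2bc6 (-0.71) and H1f1 (-0.38) with CpGs weighted alike. The genotype difference of the mean over histone CpGs was 0.175 points at 5 reads, -0.24 at 20 reads and -0.35 without flanks; the cause was not tested.

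Over all features, gene regions called were 0 in the model, 53 by Fisher's exact test and from 0 to 3 with a library left out (3 in the absence of WT replicate 1, 2 of WT replicate 2 and 1 of KO replicate 2). CpGs called were 121 in the model, 9 with a prior from all features, 508 by Fisher's exact test and 0 to 0 with any library left out, where fewer samples were fitted. With 1 library left in a genotype, it is assumed to vary like the other. With the replicate number as a block, 335 CpGs and 0 gene regions were called, and no histone call changed. Deviations of same-numbered libraries from their group means had a correlation of -0.00216 over 284227 CpGs of 20% to 80%. Counting error is large at single CpGs (median 22 reads per library), so this cannot exclude that the numbers pair the libraries.

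Single CpGs had a median depth of 21 to 25 reads per library, and 12.1% of the CpGs in histone promoter entries were analysed; no value is given here for the rest.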
